A study of Mus musculus with 38 samples.

Results

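Transcripts of 10 genes of the cytosolic heat shock response were followed in left ventricles of mice: the heat shock factor Hsf1, the HSP90 genes Hsp90aa1 and Hsp90ab1, the HSP70 genes Hspa8, Hspa1a and Hspa1b, the HSP110 gene Hsph1, the HSP40 gene Dnajb1, the small heat shock protein gene Cryab and the cochaperone gene Bag3. They were chosen by symbol, because HSP90 is a known substrate of the deacetylase HDAC6, and all 10 were found among the 29564 genes of the deposited tables. All mice were wild type, of the strain that the labels give as C57BL6 and the methods as C57BL/6J. Healthy mice given vehicle (non_failing, n = 8) were compared with mice that had heart failure with preserved ejection fraction (HFpEF), a state the study induced with a high-fat diet and L-NAME, an inhibitor of nitric oxide synthases. Of the HFpEF mice, 8 received vehicle (HFpEF+Veh), 11 received TYA-018, which inhibits HDAC6 (HFpEF+TYA-018), and 11 received empagliflozin, which inhibits the renal glucose transporter SGLT2 (HFpEF+SGLT2i), each by mouth once a day. The labels give no age and no dose, and they give another sex than the methods of the study do. The diet and L-NAME were shared by the 3 HFpEF groups and absent from non_failing, so that diet, L-NAME and heart failure cannot be told apart.

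Heat shock proteins are chaperones that hold and refold other proteins. HSP70 works in a cycle driven by ATP hydrolysis, in which HSP40 proteins deliver clients and stimulate the ATPase, while exchange factors of the HSP110 and BAG families release the nucleotide, and HSP90 finishes the folding of kinases, receptors and other signalling proteins. In resting cells HSF1 is kept inactive by chaperones, and on heat or proteotoxic stress it forms trimers that bind repeats of the heat shock element in the promoters of inducible genes such as Hspa1a, Hspa1b, Hsph1 and Dnajb1. Deacetylation of HSP90 by HDAC6 acts on the protein, and RNA levels do not measure it.

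The promoters of 4 inducible members are shown first, because Hspa1a and Dnajb1 were the members called in the comparisons, Hspa1b is a near copy of Hspa1a, and Hsph1 is an inducible gene that was not called. RefSeq promoter windows (GRCm38.p6) matched 5 of the 10 members, Hspa1a, Hspa1b, Dnajb1, Hsph1 and Bag3. Each sequence gives the 250 bases before a transcription start, 5′ to 3′ on the strand of the gene, and capitals mark a pair of inverted heat shock element units, GAANNTTC or TTCNNGAA, where N is any base and both letter strings read the same on either strand. Hspa1a lies on the minus strand, with the window at chr17:34972157-34972406, and Hspa1b on the minus strand at chr17:34959239-34959488. Dnajb1 lies on the plus strand at chr8:83607925-83608174, and Hsph1 on the minus strand at chr5:149636337-149636586.
Hspa1a: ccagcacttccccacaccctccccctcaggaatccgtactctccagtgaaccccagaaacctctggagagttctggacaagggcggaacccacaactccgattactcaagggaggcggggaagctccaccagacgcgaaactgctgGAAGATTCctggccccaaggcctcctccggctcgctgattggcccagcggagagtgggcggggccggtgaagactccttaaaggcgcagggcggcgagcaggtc
Hspa1b: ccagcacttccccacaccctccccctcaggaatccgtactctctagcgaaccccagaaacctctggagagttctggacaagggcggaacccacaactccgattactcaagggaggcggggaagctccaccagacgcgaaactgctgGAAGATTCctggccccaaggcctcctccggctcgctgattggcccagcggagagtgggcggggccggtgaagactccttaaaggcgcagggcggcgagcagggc
Dnajb1: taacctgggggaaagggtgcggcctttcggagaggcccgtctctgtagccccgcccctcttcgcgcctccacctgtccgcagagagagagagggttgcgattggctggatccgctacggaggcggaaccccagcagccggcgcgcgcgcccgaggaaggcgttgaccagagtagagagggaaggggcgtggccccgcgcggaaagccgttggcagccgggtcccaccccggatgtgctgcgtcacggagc
Hsph1: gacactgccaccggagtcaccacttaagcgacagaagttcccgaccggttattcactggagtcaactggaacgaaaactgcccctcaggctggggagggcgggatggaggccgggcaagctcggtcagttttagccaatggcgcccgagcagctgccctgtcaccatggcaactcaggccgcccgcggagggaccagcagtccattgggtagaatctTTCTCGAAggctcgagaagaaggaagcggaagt
The Hspa1a and Hspa1b windows differed at 3 of 250 bases, an identity of 98.8%, and both held 1 match, GAAGATTC, that began 104 bases before the start. The Hsph1 window held TTCTCGAA, which began 33 bases before the start printed here and 54 bases before another annotated one. Neither Dnajb1 window nor the Bag3 window held a match, and the second Dnajb1 start lies inside the gene. Of all 32851 promoter windows, 12.8% held either 8-letter motif. The longer motifs with 3 units, GAANNTTCNNGAA and its reverse complement TTCNNGAANNTTC, which contain the 8-letter motifs, occurred in 0.466% of all windows and in 0 of those of the 5 members. A match is a stretch of letters and was not tested as a binding site.

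Libraries held 21451631 to 59280407 counts, and the labels give no batch. Cardiomyocyte markers were abundant in every heart, with a sum over 11 genes of 19611 to 35985 TPM (a level corrected for transcript length and library depth). Of the 5 atrial markers, Sln, Bmp10, Myl7, Myl4 and Stard10, the highest levels in any heart were 0.625, 0.258, 3.13, 7.03 and 44.5 TPM. Stard10 had at least 10.9 TPM in every heart, and the sum of the 5 was highest, at 46.5 TPM, in the vehicle library V2523. Of the 4 tested, 1, Bmp10, was called higher in each HFpEF group than in non_failing. The vehicle library V2523 stood apart, because its 9 hepatocyte markers summed to 1401 TPM, while the median of HFpEF+Veh was 5.43. These markers summed to 22.7 to 345 TPM in non_failing, 1.66 to 3.77 in HFpEF+TYA-018 and 2.08 to 8.87 in HFpEF+SGLT2i. A bulk sample cannot tell fewer cells of a type from less RNA per cell. Without V2523, 0 of the 10 genes were called in any comparison with HFpEF+Veh, beside 620 of 13801 genes against non_failing, 196 with TYA-018 and 2 with empagliflozin, where 433, 266 and 117 were called with all libraries. In those fits the estimates of members that changed sign against non_failing were those of Hsph1 (from -0.02 to 0.06, log2) and Cryab (from 0.03 to -0.03). Levels between genes are given in TPM, and fold changes come from counts scaled by TMM factors, so the difference of group mean TPM can have another sign. With scaling by library size alone, the median log2 fold change of all genes in HFpEF+TYA-018 against HFpEF+Veh was -0.14, where it was -0.01 with TMM, and 2.28% in place of 43.2% of the called genes were higher with TYA-018.

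The 10 genes differed widely in level. Hspa8, the constitutive HSP70 that folds new proteins and uncoats clathrin vesicles, was the most abundant with a mean of 444 ± 59.3 TPM (SD, n = 38). Hsp90ab1, the constitutive HSP90, followed at 199 ± 27.5 TPM. These housekeeping genes made up 84.8% to 85.2% of the summed TPM of the 10 genes in the 4 groups. Bag3, which links HSP70 to small heat shock proteins and to autophagy at the Z disc, had 52.0 ± 9.31 TPM, and the stress-inducible HSP90 gene Hsp90aa1 had 24.6 ± 4.49. Cryab had 18.8 ± 6.22, Dnajb1 7.37 ± 2.09, Hspa1a 3.50 ± 2.19, Hsph1 3.29 ± 0.921, Hspa1b 2.55 ± 1.27 and Hsf1 2.07 ± 0.880 TPM. Hspa8 exceeded Hsp90ab1, Hsp90ab1 exceeded Bag3 and Bag3 exceeded Hsp90aa1 in 38 of 38 hearts. Hsp90aa1 exceeded Cryab in 31 hearts, and Cryab exceeded Dnajb1, and Dnajb1 exceeded Hspa1a, in 37. The order was loose at the low end, where Hspa1a exceeded Hsph1 in 18, Hsph1 exceeded Hspa1b in 28 and Hspa1b exceeded Hsf1 in 22 of 38 hearts. The first and the last of these pairs did not differ beyond their spread, and Hsph1 was above Hspa1b in most hearts with ranges that overlapped.

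**Figure D1:**
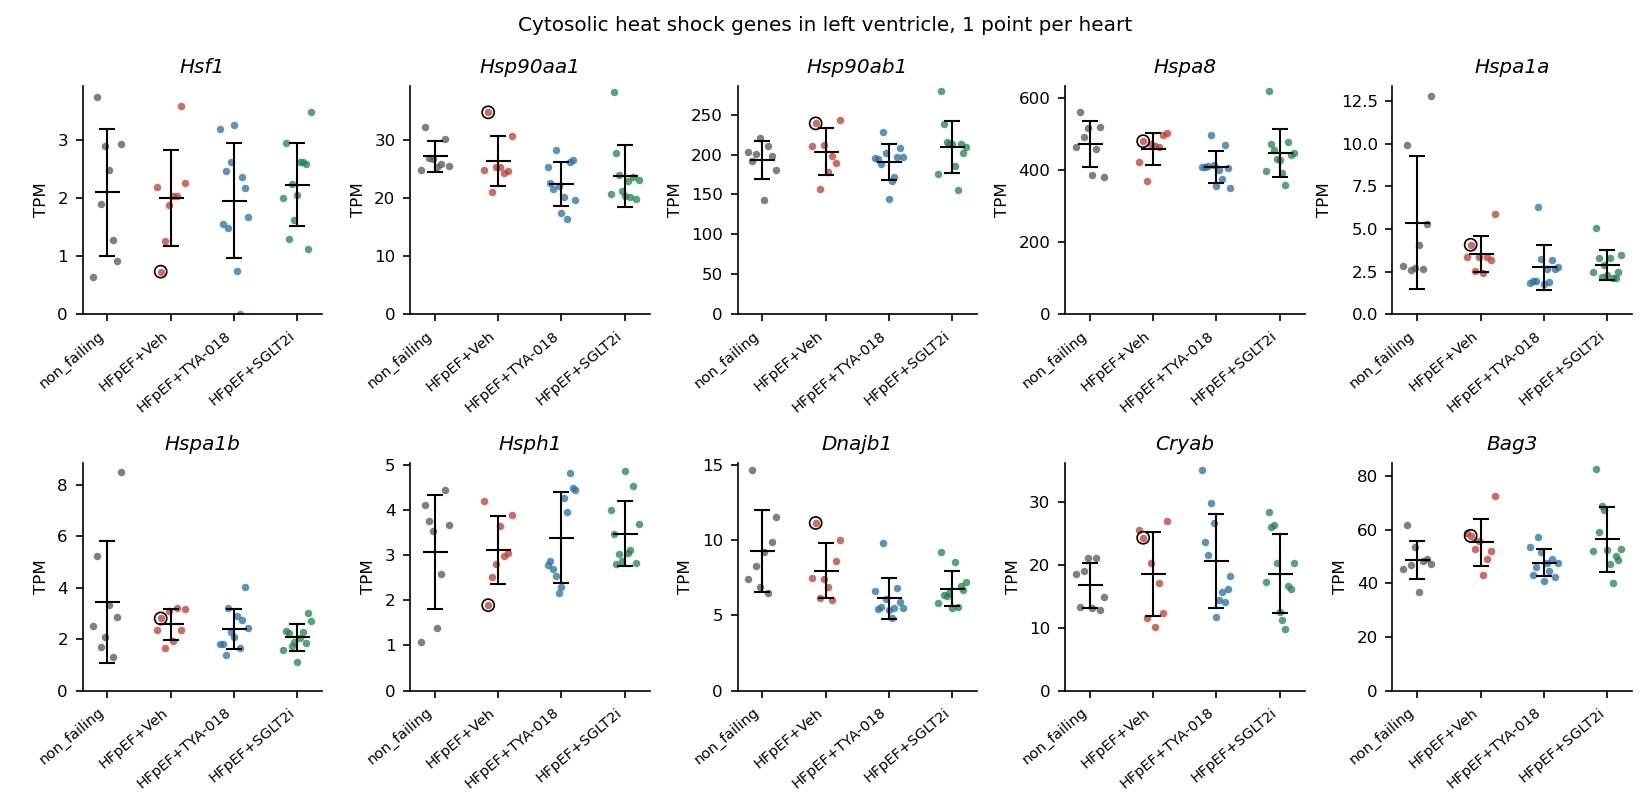
Level of each gene in TPM (vertical axis, linear, from 0) by group, with 1 point per heart, the mean as a horizontal bar and the SD as error bars. The circled point is the vehicle library V2523. Hspa1a reached 9.95 and 12.8 TPM in 2 non_failing hearts and stayed at or below 6.29 in all HFpEF hearts.

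Over all 38 hearts, the heart-to-heart spread was narrowest for the abundant genes. The coefficient of variation over 38 hearts was 13.3% for Hspa8 and 13.8% for Hsp90ab1, 17.9% for Bag3 and 18.2% for Hsp90aa1. It was 62.8% for Hspa1a, 49.8% for Hspa1b, 28.0% for Hsph1 and 28.4% for Dnajb1, but these values include the differences between groups. Within the groups it was 73.0% for Hspa1a and 69.3% for Hspa1b in non_failing, where 2 hearts were high, and 41.0% for Hsph1 and 29.5% for Dnajb1. In the HFpEF groups it was 30.6% to 47.4% for Hspa1a, 23.1% to 32.6% for Hspa1b, 20.7% to 29.5% for Hsph1 and 17.4% to 23.1% for Dnajb1. Hsp90aa1 was the narrowest within non_failing at 9.75%, beside 13.7% for Hspa8 and 12.3% for Hsp90ab1. Bag3 was the narrowest within HFpEF+TYA-018 at 10.6%, beside 10.8% for Hspa8. Hspa8 was the narrowest within HFpEF+Veh at 9.56% and within HFpEF+SGLT2i at 15.1%. Over the 38 hearts Hsf1 varied by 42.4% on estimated counts of 0 to 348.

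HFpEF+Veh hearts were compared with non_failing hearts to ask whether the disease model alone moved the chaperones. None of the 10 genes was called at an adjusted p under 0.05 (edgeR quasi-likelihood test, Benjamini-Hochberg over 13765 genes), where 3.15% of all genes were called. At an unadjusted p under 0.05 in edgeR there were 3, Hspa1a, Hspa1b and Dnajb1, each with a lower estimate in HFpEF+Veh, beside 2185 of all 13765 genes. DESeq2 and limma also called 0, where they called 599 and 479 of all genes. The median log2 fold change of the members was -0.15 and that of all genes was 0.01. Of the 10 estimates, 8 were negative, while 52.3% of all genes had a positive one. With scaling by library size alone, Hsp90ab1 and Hsph1 turned positive.

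With TYA-018, 0 of 10 members were called against HFpEF+Veh by edgeR, where 1.93% of all genes were (266), and 0 by DESeq2 or limma, where 402 and 234 of 13765 genes were, and the members' median log2 fold change was 0.00 against -0.01 for all genes. At an unadjusted p under 0.05 in edgeR there was 1, Dnajb1, beside 2404 of all genes. With empagliflozin, 0 of 10 were called by edgeR, where 0.850% of all genes were (117), and 0 by DESeq2 or limma, where 115 and 0 genes were. Without V2523, edgeR called 2 of 13801 genes in place of 117 here. In the fit of all libraries 0 members passed an unadjusted p under 0.05, as 1383 of all genes did. Their median was 0.09 and that of all genes 0.01. Between the 2 drugs, edgeR called 0 of 10 members and 0 of 13765 genes, so that the background was 0%. In that comparison 1821 genes and 1 member, Bag3, had an unadjusted p under 0.05, and DESeq2 called 134 genes but no member.

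Against non_failing hearts, 2 of 10 members were called in HFpEF+TYA-018, where 7.39% of all genes were called, and 2 of 10 in HFpEF+SGLT2i, where 6.45% were. In both comparisons these were Dnajb1 and Hspa1a, and both were lower in the treated hearts. An unadjusted p under 0.05 in edgeR was reached by 5 members with TYA-018 and 4 with empagliflozin, beside 3024 and 2703 of all genes. Negative estimates numbered 6 and 5 of 10. The members' median log2 fold change was -0.10 with TYA-018 and -0.01 with empagliflozin, beside 0.01 over all genes in either. The comparisons of all 3 HFpEF groups with healthy hearts use the same 8 non_failing libraries.

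**Figure D2:**
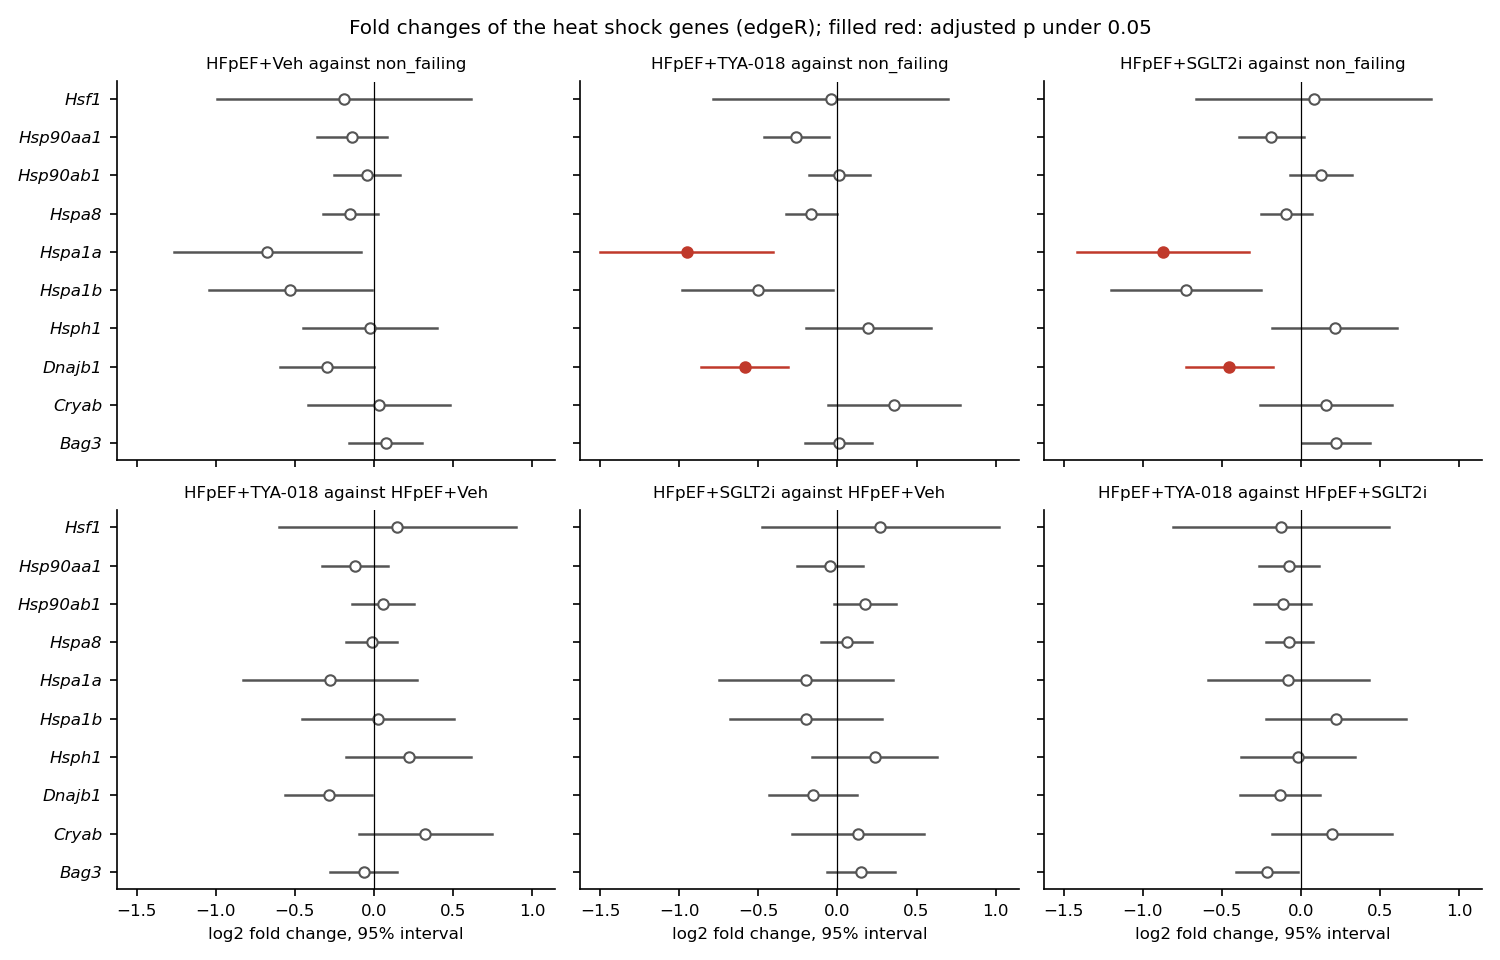
Log2 fold change (horizontal axis) of the 10 genes in the 6 comparisons with 95% intervals from edgeR; filled red points have an adjusted p under 0.05, and open points do not. Filled points are Dnajb1 and Hspa1a in the 2 comparisons of treated with non_failing hearts.

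Hsf1 encodes the main transcription factor of the heat shock response. It ranged from 0.634 to 3.74 TPM in non_failing with a median of 2.19, from 0.731 to 3.59 with a median of 2.04 in HFpEF+Veh, from 0 to 3.25 with a median of 2.17 in HFpEF+TYA-018 and from 1.12 to 3.48 with a median of 2.24 in HFpEF+SGLT2i. The groups overlapped almost entirely, and the TYA-018 heart V2552 was listed at 0, while the other 37 libraries had estimated counts above 0. The estimates ran from -0.19 ± 0.40 (log2, SE) for HFpEF+Veh against non_failing to 0.27 ± 0.37 for HFpEF+SGLT2i against HFpEF+Veh. The 95% interval of the latter reached from -0.48 to 1.02. Without V2523, whose Hsf1 level was the lowest of HFpEF+Veh, the mean of the 7 remaining vehicle hearts was 2.18 ± 0.702 in place of 2.00 ± 0.827 TPM.

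Hsp90aa1 is the inducible form of HSP90. It lay between 24.7 and 32.2 TPM in non_failing (median 26.2), between 21.04 and 34.7 in HFpEF+Veh (25.01), between 16.4 and 28.2 in HFpEF+TYA-018 (22.1) and between 19.8 and 38.2 in HFpEF+SGLT2i (22.9). Of 11 TYA-018 hearts 7, and of 11 empagliflozin hearts 9, lay below the lowest non_failing heart, but the empagliflozin heart V2562 lay above all others. Against non_failing the estimate was -0.26 ± 0.10 with TYA-018 (edgeR adjusted p = 0.112) and -0.19 ± 0.10 with empagliflozin (0.307), and neither was called. Leaving out V2562 moved the empagliflozin estimate to -0.27, with an adjusted p of 0.0488. V2523 had the highest level of HFpEF+Veh, and without it the vehicle mean was 25.2 ± 2.86 in place of 26.4 ± 4.30 TPM. Of the 31-base words of the Hsp90aa1 transcripts, 46.7% also occur in Gm12346, at a mean of 0.0635 TPM.

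Hsp90ab1, the constitutive HSP90, was found at 143 to 221 TPM in non_failing (median 199), 157 to 244 in HFpEF+Veh (205), 145 to 229 in HFpEF+TYA-018 (196) and 156 to 279 in HFpEF+SGLT2i (213). The 4 ranges lay over each other. The estimates were -0.04 ± 0.10 for HFpEF+Veh against non_failing, 0.06 ± 0.10 for TYA-018 and 0.17 ± 0.10 for empagliflozin against vehicle. The 95% interval of the TYA-018 estimate reached from -0.14 to 0.25. With scaling by library size alone the first 2 estimates had the other sign.

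Hspa8 ranged from 380 to 563 TPM in non_failing (median 479), from 370 to 503 in HFpEF+Veh (469), from 350 to 498 in HFpEF+TYA-018 (408) and from 360 to 620 in HFpEF+SGLT2i (442). Of the 11 TYA-018 hearts, 10 lay below the non_failing median in TPM and 9 on log2 CPM (counts scaled by library size and TMM factor, the scale of the fold changes), and the groups overlapped. The estimate for TYA-018 against non_failing was -0.17 ± 0.08, with an edgeR p of 0.0438 and an adjusted p of 0.213. Against vehicle it was -0.01 ± 0.08, with a 95% interval from -0.18 to 0.15, and -0.14 with scaling by library size alone (adjusted p = 0.267). Of the 31-base words of the Hspa8 transcripts, 38.6% also occur in Gm15459, which had a mean of 0.0878 TPM.

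Hspa1a and Hspa1b encode nearly the same inducible HSP70 protein and lie 9951 bases apart on chromosome 17 of GRCm38, Hspa1a at chr17:34969190-34972156 and Hspa1b at chr17:34956436-34959238, both protein-coding and on the minus strand. Of the 31-base words of the Hspa1a transcript, 63.8% also occur in Hspa1b, and 67.6% of those of Hspa1b occur in Hspa1a, so reads were divided between them by a model and the split is uncertain. Gm20481, on the other strand, overlaps Hspa1a.

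Hspa1a was found at 2.59 to 12.8 TPM in non_failing hearts, with a median of 3.43 and a mean of 5.36 ± 3.91 (SD, n = 8). In HFpEF+Veh it ranged from 2.44 to 5.87 with a median of 3.36. In HFpEF+TYA-018 it ranged from 1.75 to 6.29 with a median of 2.67, and in HFpEF+SGLT2i from 2.10 to 5.07 with a median of 2.47. The medians of non_failing and vehicle hearts were close in TPM, but on log2 CPM they were 3.41 and 3.08. The highest levels were those of 2 non_failing hearts, V2510 at 12.8 and V2502 at 9.95 TPM, while the other 6 did not exceed 5.29. In the treated groups 10 of 11 TYA-018 hearts and 9 of 11 empagliflozin hearts lay below the non_failing median, and the groups overlapped. The log2 fold change against non_failing was -0.95 ± 0.27 with TYA-018 (edgeR adjusted p = 0.0232) and -0.87 ± 0.27 with empagliflozin (0.0429). It was -0.67 ± 0.29 for HFpEF+Veh (0.236), and -0.37 (0.508) without V2510. The TYA-018 call ended without V2502 (estimate -0.79, adjusted p = 0.0679), without V2510 (-0.65, 0.132), with limma (0.0800) and in a fit of the 2 groups alone (0.0650). The empagliflozin call ended with scaling by library size alone (adjusted p = 0.0541), with limma (0.160), with no filter on low counts (0.0562) and in a fit of the 2 groups alone (0.0828). It also ended in 13 of 38 leave-one-out fits, those without V2502, V2507, V2509, V2510, V2561, V2564, V2565, V2566, V2571, V2572, V2573, V2574 or V2575, and its estimate over all 38 lay between -1.01 and -0.57.

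Hspa1b ranged from 1.30 to 8.49 TPM in non_failing (median 2.67), from 1.64 to 3.22 in HFpEF+Veh (2.58), from 1.38 to 4.01 in HFpEF+TYA-018 (2.27) and from 1.12 to 3.01 in HFpEF+SGLT2i (2.04). The same 2 non_failing hearts were highest, V2510 at 8.49 and V2502 at 5.21 TPM. The empagliflozin estimate against non_failing was -0.73 ± 0.23 with an edgeR adjusted p of 0.0546, and DESeq2 called it (adjusted p = 0.0303), as did 7 of 38 leave-one-out fits, but without V2510 it was -0.42 (0.261). The TYA-018 estimate was -0.50 ± 0.23 (0.196), and -0.20 (0.656) without V2510. For HFpEF+Veh it was -0.53, and -0.22 (0.649) without V2510. The counts of Hspa1a and Hspa1b were also summed, an alternative chosen after the data had been seen. Against non_failing, the summed estimates were -0.76 ± 0.24 with TYA-018 (edgeR adjusted p = 0.0467) and -0.81 ± 0.24 with empagliflozin (0.0340). The vehicle estimate was -0.62 ± 0.26 (0.225). The sum leaves out Hspa8, the HSP70 gene with a mean of 444 TPM, which was not called in these comparisons. Against vehicle the summed estimates were -0.14 ± 0.24 and -0.20 ± 0.24, and neither was called. The summed counts were not refitted with libraries left out.

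Hsph1 encodes HSP110, a disaggregase and exchange factor of HSP70. It ranged from 1.08 to 4.46 TPM in non_failing (median 3.60), from 1.89 to 4.19 in HFpEF+Veh (3.02), from 2.16 to 4.82 in HFpEF+TYA-018 (2.88) and from 2.80 to 4.87 in HFpEF+SGLT2i (3.11). The groups overlapped throughout. Its estimates against non_failing were 0.19 ± 0.19 with TYA-018 and 0.21 ± 0.19 with empagliflozin, opposite in sign to those of Hspa1a and Dnajb1, and neither was called. With a library left out they ran from 0.067 to 0.292 and from 0.085 to 0.310. The medians on log2 CPM ran the other way, at 3.30 with TYA-018 and 3.43 with empagliflozin beside 3.52 in non_failing. V2523 had the lowest level of HFpEF+Veh at 1.89 TPM, and the vehicle mean without it was 3.30 ± 0.618.

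Dnajb1 encodes the HSP40 that delivers clients to inducible HSP70 and holds HSF1 in check. The gene lies at chr8:83608193-83612653 on the plus strand, and 0.412% of its 31-base words occur in other genes. In non_failing hearts it ranged from 6.46 to 14.7 TPM with a median of 8.75, and in HFpEF+Veh from 6.01 to 11.1 with a median of 7.46. It ranged from 4.86 to 9.81 with a median of 5.58 in HFpEF+TYA-018, and from 5.47 to 9.23 with a median of 6.48 in HFpEF+SGLT2i. The order of the medians was non_failing, HFpEF+Veh, HFpEF+SGLT2i, HFpEF+TYA-018. Of the 11 TYA-018 hearts 8 lay below the lowest non_failing heart and 7 below the lowest vehicle heart in TPM. On log2 CPM these numbers were 9 and 2, so the count below the lowest vehicle heart depended on the scale. On either scale 10 of the 11 lay below the vehicle median. The heart V2548, at 9.81 TPM, lay among the high non_failing hearts.

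The log2 fold change of Dnajb1 against non_failing was -0.59 ± 0.14 with TYA-018, a fold of 0.666 (edgeR adjusted p = 0.00517), and the call remained in all 38 leave-one-out fits, with adjusted p-values from 0.000787 to 0.0201, and in every other alternative run. It was -0.45 ± 0.14 with empagliflozin (0.0353), and this call ended with limma (0.0796), in a fit of the 2 groups alone (0.0534) and in 10 of 38 leave-one-out fits, those without V2502, V2507, V2509, V2510, V2563, V2564, V2565, V2566, V2572 or V2575. For HFpEF+Veh the estimate was -0.30 ± 0.15 (0.311), and for TYA-018 against vehicle -0.29 ± 0.14 (0.263), which was not called. V2523 had the highest Dnajb1 level of HFpEF+Veh. Without it the vehicle mean was 7.51 ± 1.42 in place of 7.97 ± 1.84 TPM, and the estimates were -0.37 (adjusted p = 0.163) for HFpEF+Veh against non_failing and -0.21 (0.392) for TYA-018 against vehicle.

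Cryab encodes αB-crystallin, a small heat shock protein that protects desmin and titin in the sarcomere. It ranged from 12.9 to 21.2 TPM in non_failing (median 16.7), from 10.1 to 27.0 in HFpEF+Veh (18.7), from 11.8 to 35.1 in HFpEF+TYA-018 (18.3) and from 9.76 to 28.5 in HFpEF+SGLT2i (17.3). The coefficients of variation were 33.9% to 36.2% in the HFpEF groups and 21.5% in non_failing, and this difference was not tested. The largest estimate was 0.36 ± 0.21 for TYA-018 against non_failing (edgeR adjusted p = 0.321). Of the 7 other small heat shock genes, Hspb7 at 441, Hspb6 at 377, Hspb1 at 289, Hspb8 at 195 and Hspb2 at 80.6 TPM lay above the 18.8 TPM of Cryab, Hspb3 at 9.02 lay below it, and Cryaa was listed at 0. Cryab (chr9:50751325-50756636, plus strand) overlaps Hspb2 on the other strand, and whether this touched its count was not tested.

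Bag3 ranged from 36.6 to 61.9 TPM in non_failing (median 47.7), from 43.2 to 72.5 in HFpEF+Veh (54.4), from 40.7 to 57.4 in HFpEF+TYA-018 (47.6) and from 40.1 to 82.7 in HFpEF+SGLT2i (52.5). Of the 11 TYA-018 hearts, 9 were below the empagliflozin median in TPM and 5 on log2 CPM, and the groups overlapped. The difference between the drugs was -0.22 ± 0.10, with an edgeR p of 0.0317 and an adjusted p of 0.326, and empagliflozin against non_failing was 0.22 ± 0.11 with 0.0414 and 0.2295. Neither passed the adjusted threshold.

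Markers of other cell types and clock genes were counted in the same comparisons, in which 7.39% and 6.45% of all genes were called. In HFpEF+TYA-018 against non_failing, 9 of 9 hepatocyte markers, 2 of 20 clock genes and 1 of 11 cardiomyocyte markers were also called lower, and 1 clock gene was called higher. In HFpEF+SGLT2i against non_failing these numbers were 8, 2, 4 and 0. Each of the other marker lists had 0 to 2 called genes in these comparisons. Of 5 erythrocyte markers 1 was called higher with TYA-018, but 5 had a higher estimate and an unadjusted p under 0.05, with a median log2 fold change of 1.07. With empagliflozin 0 of 5 passed an unadjusted p under 0.05 in edgeR and 0 were called, with a median of 0.33. These markers summed to 3786 to 8147 TPM in non_failing, 5780 to 41874 in HFpEF+Veh, 4811 to 22934 in HFpEF+TYA-018 and 4720 to 16037 in HFpEF+SGLT2i. No hepatocyte marker had a median of 0 in non_failing. The non_failing heart with the highest hepatocyte sum, V2504 at 345 TPM, had 2.69 TPM of Hspa1a and 6.87 of Dnajb1, among the low values of its group, while the vehicle library V2523, at 1401 TPM, had 4.07 and 11.1, the second highest and the highest of its group. The summed level of 20 clock genes was 300 to 530 TPM in non_failing, where V2510 was highest, 293 to 380 in HFpEF+Veh, 189 to 367 in HFpEF+TYA-018 and 242 to 382 in HFpEF+SGLT2i. The called clock genes were Rbm3, a cold-inducible RNA-binding protein (log2 -0.48 with TYA-018 and -0.69 with empagliflozin), Nr1d1 (-0.76) and Nfil3 (0.63) with TYA-018, and Hlf (-0.62) with empagliflozin. Of 17 immediate early genes, edgeR called 0 in both, with 4 and 5 at an unadjusted p under 0.05. The part of these genes in the lower Hspa1a and Dnajb1 levels was not tested.

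Members were compared with each other across the 38 hearts. The log2 CPM were centred on the group means and correlated for all 45 pairs, with permutations within groups. Of these, 17 pairs passed an adjusted p of 0.05 for Pearson's r, all 17 were positive, and 13 passed for Spearman's rho as well. The median r of the 45 pairs was 0.23, and that of all pairs of the 13765 tested genes, which include genes of low count, was -0.001. An r of at least 0.38, the lowest that passed, was found in 18 of the 45 member pairs and in 11.7% of all pairs. All genes of a library share its depth and scaling, so the coefficients describe these libraries. The deposited effective length of a gene also varied between libraries. In HFpEF+TYA-018, Cryab had 4.90 log2 CPM at its longest, 795 bases in V2548, and 3.61 at its shortest, 668 bases in V2550. Hsp90ab1 had 9.66 at 2815 bases and 8.97 at 2228 bases in these libraries, but 9.41 at 2227.5 bases in V2555. The part of effective length in the coefficients was not tested.

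**Figure D3:**
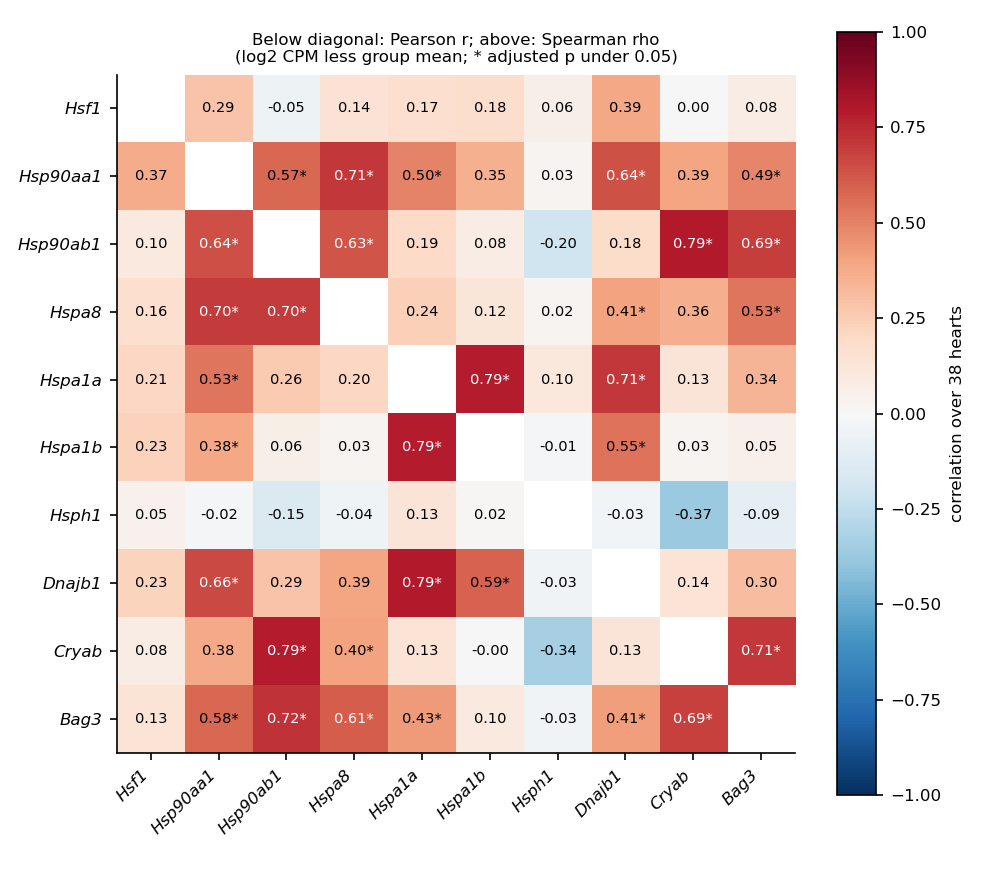
Correlation of each pair of genes over 38 hearts, as Pearson's r below the diagonal and Spearman's rho above it, on log2 CPM less the group mean; an asterisk marks an adjusted p under 0.05. Values above 0.7 on both measures join Hspa1a with Dnajb1 and Hspa1b, Hsp90ab1 with Cryab, and Hsp90aa1 with Hspa8, while no pair of Hsf1 or Hsph1 has an asterisk.

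Among the inducible genes, Hspa1a and Dnajb1 had r = 0.79 and rho = 0.71 (n = 38, permutation test, adjusted p = 5.62e-05 and 1.50e-04). The first rests on 1e-05, the smallest p that these permutations can give. It was 0.77 without the 2 libraries farthest from the median of Hspa1a, and within groups it was 0.87 in non_failing, 0.70 in HFpEF+Veh, 0.77 in HFpEF+TYA-018 and 0.77 in HFpEF+SGLT2i. Hspa1a and Hspa1b had r = 0.79 and rho = 0.79, but the shared reads of the paralogs enter both. Hsp90aa1 went with Dnajb1 at r = 0.66 and with Hspa1a at r = 0.53, and both held without the 2 farthest libraries at 0.65 and 0.44.

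Among Hsp90ab1, Hspa8, Cryab and Bag3, the pair Hsp90ab1 and Cryab had r = 0.79 and rho = 0.79 (permutation test, adjusted p = 5.62e-05 and 9.00e-05, which rest on the same smallest p), 0.75 without the 2 farthest libraries, and 0.74 to 0.85 within the 4 groups. Hsp90ab1 and Bag3 had r = 0.72, Hsp90ab1 and Hspa8 0.70, Hspa8 and Hsp90aa1 0.70, Cryab and Bag3 0.69, and Hspa8 and Bag3 0.61. Hspa8 and Cryab were the weakest pair at r = 0.40, with 0.02 within non_failing and -0.01 within HFpEF+Veh. Their rho did not pass (permutation test, adjusted p = 0.0718). Cryab and Bag3 did not hold within non_failing, where r was -0.09. Hsp90aa1 and Hsp90ab1 had r = 0.64 overall but -0.40 within non_failing, where Hsp90ab1 also ran against Hspa1a (-0.79) and Dnajb1 (-0.84).

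No pair with Hsf1 or Hsph1 passed the adjusted threshold, and the coefficient of lowest value was that of Hsph1 and Cryab, r = -0.34 and rho = -0.37 (permutation test, adjusted p = 0.0613 and 0.0581). Hsf1 was the gene with the lowest mean level.

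**Figure D4:**
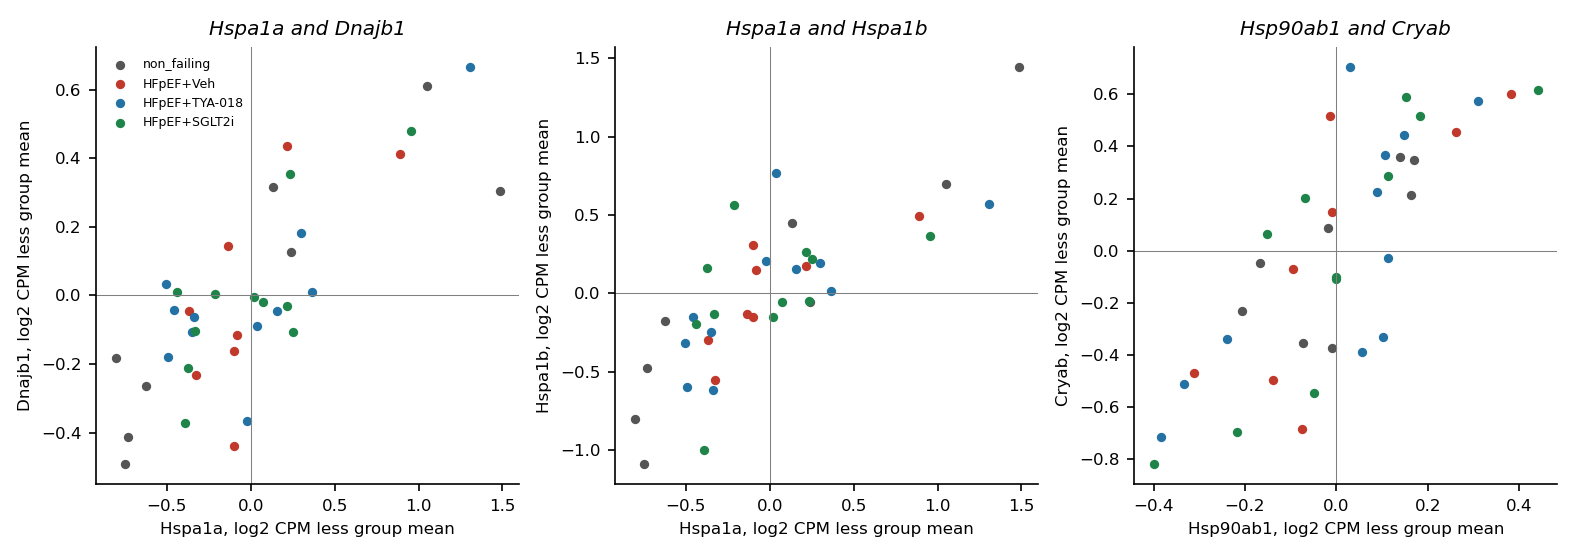
Log2 CPM less the group mean for 3 pairs of genes, with 1 point per heart coloured by group. Hspa1a rises with Dnajb1 (r = 0.79) and with Hspa1b (r = 0.79), and Hsp90ab1 with Cryab (r = 0.79).

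Genes outside the list that were most alike in this measure are given as a description. For Hspa1b they were Dnaja1 (r = 0.63), another HSP40 that works with HSP70, Mta2 (0.62) and Nab2 (0.62). For Hspa8 they were Cct4 (0.72) and Tcp1 (0.72), subunits of the cytosolic chaperonin TRiC, and Cops3 (0.72). For Hsp90aa1 they were Dnttip2 (0.73), Gtpbp4 (0.73) and Gna13 (0.72), and for Hsf1 they were Cxxc1 (0.66), Rap1gds1 (0.61) and Eml4 (0.60). Cryab had the closest companions, Tecr (0.92), Ppp2r1a (0.91) and Ephx2 (0.91), with a lowest r within a group of 0.89, 0.79 and 0.86. Differences in effective length between libraries were not taken out of these coefficients. Several of the others did not hold within a group, where r was as low as -0.29 for Cxxc1 and -0.19 for Eml4 with Hsf1, -0.14 for Nab2 with Hspa1b and 0.09 for Dnttip2 with Hsp90aa1.

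The members were set beside 106 other chaperone genes of 10 lists, of which 102 could be tested. In HFpEF+Veh against non_failing, 4 of 102 were called, a share of 3.92% beside 3.15% of all genes. Chordc1, a cochaperone of HSP90, fell by 0.27 on the log2 scale, Hspa5, the HSP70 of the endoplasmic reticulum, fell by 0.45 and Sdf2l1, its partner in that compartment, fell by 0.76. Ier5, a regulator and target of HSF1, rose by 0.63. With a library left out, 1 to 6 of these chaperone genes were called. In the same comparison 4 of 11 cardiomyocyte markers and 2 of 7 pericyte and smooth muscle markers were called lower. Called higher were 3 of 8 fibroblast markers and 2 of 4 tested skeletal muscle markers, and the part of these cell types was not tested. In TYA-018 or empagliflozin against vehicle, and between the drugs, 0 of 102 were called by edgeR, with 19, 6 and 10 at an unadjusted p under 0.05 beside 2404, 1383 and 1821 of all 13765 genes, and DESeq2 called 2 for TYA-018 against vehicle.

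Against non_failing, 7 of 102 were called with TYA-018 and 7 with empagliflozin, a share of 6.86% in either, near the 7.39% and 6.45% of all genes. Dnaja1, which like Dnajb1 loads clients onto HSP70, fell by 0.48 and by 0.49, Chordc1 by 0.29 and by 0.34, Hspa5 by 0.35 and by 0.36, and Sdf2l1 by 0.76 and by 0.83. Genes called with TYA-018 but not with empagliflozin included Hyou1 (-0.32) and Stub1 (0.49), the ubiquitin ligase of the HSP70 system. Called with empagliflozin but not with TYA-018 were Pdia3 (-0.26), Pfdn6 (-0.29) and Unc45b (0.24), the myosin chaperone. The difference between the drugs was not called for any of these.

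**Figure D5:**
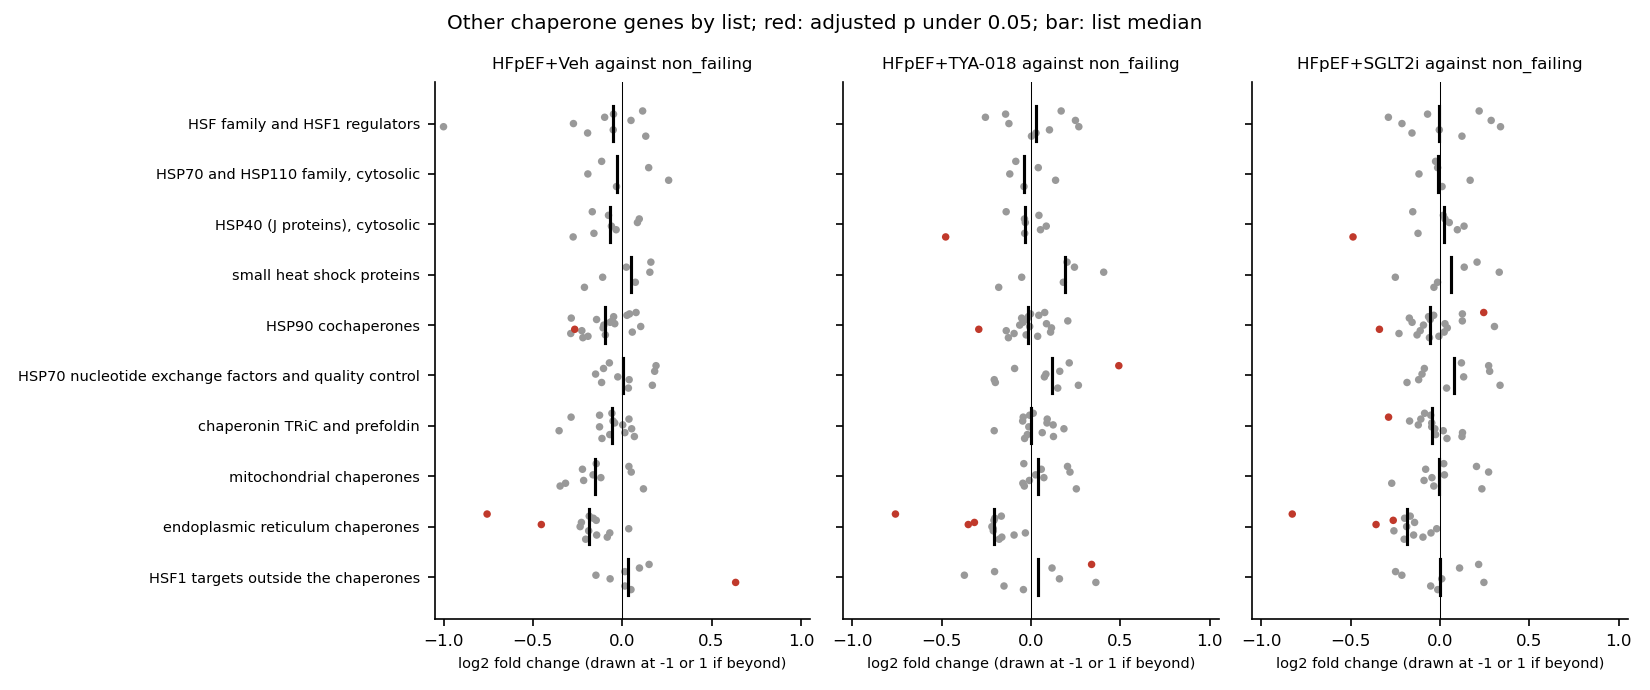
Log2 fold change (horizontal axis) of 102 other chaperone genes by list in each of the 3 HFpEF groups against non_failing. Red points have an adjusted p under 0.05, and black bars are list medians. All 13 genes of the endoplasmic reticulum list lie below 0 with either drug, and 3 of them are called.

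By list, the chaperones of the endoplasmic reticulum had the most calls in each of the 3 comparisons with non_failing. Of 13, 2 were called lower in HFpEF+Veh, 3 with TYA-018 and 3 with empagliflozin against non_failing, and the list medians were -0.18, -0.21 and -0.19. In the same order, 3.15%, 7.39% and 6.45% of all genes were called, and 0, 9 and 8 of 9 hepatocyte markers were called lower. The 0 of HFpEF+Veh includes V2523, whose hepatocyte markers summed to 1401 TPM. The median sum was 5.43 TPM in HFpEF+Veh and 56.8 in non_failing. The vehicle library V2523 had the highest sum of the endoplasmic reticulum list in its group, 430 TPM beside a median of 334. A link between the 2 lists was not tested. HSP40 proteins of the cytosol gave 0, 1 and 1 of 8, HSP90 cochaperones 1, 1 and 2 of 19, exchange factors and quality control genes 0, 1 and 0 of 10 and TRiC and prefoldin 0, 0 and 1 of 14. The other HSP70 and HSP110 genes (5 tested), the small heat shock proteins (6), the mitochondrial chaperones (10) and the HSF family with HSF1 regulators (9) gave 0 calls in these comparisons. Of the HSF1 targets outside the chaperones (8), Ier5 was called in HFpEF+Veh, and 0 were called with empagliflozin. The count of this list with TYA-018 is not given here.

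RNA of Hdac6, whose product TYA-018 inhibits, stood at 3.43 ± 0.448 TPM in non_failing, 4.37 ± 0.516 in HFpEF+Veh, 4.00 ± 0.773 in HFpEF+TYA-018 and 4.33 ± 0.808 in HFpEF+SGLT2i. It was not called in any comparison, and the TYA-018 estimate against vehicle was -0.01 ± 0.11 (edgeR adjusted p = 0.974). Among 8 genes for HDAC6 and its substrates, which include Hspa8 and Hsp90aa1, the tubulins Tuba4a (0.59) and Tuba8 (0.47) were called higher with TYA-018 than with vehicle. The actin-binding gene Cttn (0.26) was called higher in HFpEF+Veh than in non_failing, and Tuba1a (-0.40) lower with empagliflozin than in non_failing. In these comparisons, in the same order, 1.93%, 3.15% and 6.45% of all genes were called. The HSP90 genes, substrates of the same enzyme, were called in 0 of the 6 comparisons, where 0% to 7.39% of all genes were called.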

How the data were processed

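RNA of the left ventricle was sequenced in 38 mice, 1 library each. Per the labels and methods, the authors trimmed reads with fastp, quantified transcripts with Salmon 1.6.0 with bias corrections and collapsed these to gene level by tximport. The deposited expected counts estimate reads per gene and may hold fractions. The deposited TPM values were scaled by the authors for transcript length and depth, and a deposited table of effective lengths in bases links both. Reads shared by paralogs were divided by the Salmon model. The labels name a human genome build where the methods name GRCm38.p6 of the mouse, and labels and methods differ on sex, read length and length of treatment. Unmapped columns numbered 0.

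Expected counts were rounded. Genes were kept with filterByExpr, which left 13765 of 29564 and all 10 members, scaled with TMM factors and tested in 1 model of the 4 groups with edgeR 4.0.16 in R 4.3.3 (quasi-likelihood F test, two-sided, no covariates). The Benjamini-Hochberg adjustment ran across the 13765 genes, with calls at an adjusted p below 0.05. The log2 CPM values used a prior count of 2. Alternatives were other scalings, DESeq2 1.42.0, limma 3.58.1 on log2(TPM + 1), no filter, length offsets, fits of 2 groups alone, and leaving out each library. Correlations used 100000 permutations within groups, two-sided, over 45 pairs (scipy 1.17.1), and r was repeated without the 2 libraries farthest from the median of the first gene. Coordinates are 1-based GENCODE positions on GRCm38. Words of 31 bases were compared over GENCODE transcripts. The fits were tested on simulated counts.

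The members and the lists of other genes were chosen with earlier results of these data known. Named genes are the members, Hdac6, up to 3 called genes per list, direction and comparison by smallest p, and, for 5 members, the 3 genes most correlated with each of them among genes with an average log2 CPM of at least 1. Of the genes this rule names, 1 is not reported here. Each mouse identifier, such as V2523, occurs in 1 group alone, so no libraries were paired. The 166 pairs of libraries within groups differed by more than counting noise, the lowest ratio of chi-square to its degrees of freedom being 16.6. The labels do not say whether mice shared a cage or litter.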

Additional observations from a re-analysis of the deposited data

How the results depend on the processing

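No paired analysis was possible because no mouse identifier occurs in more than 1 group. The 10 genes gave 0 calls in HFpEF+Veh against non_failing and in the 3 comparisons among HFpEF groups under every alternative and every left-out library. Dnajb1 in HFpEF+TYA-018 against non_failing was called throughout. The number of members called there was 1 with limma, 1 in a fit of 2 groups and 1 to 2 with a library left out. In HFpEF+SGLT2i against non_failing it was 3 with DESeq2 (Dnajb1, Hspa1a, Hspa1b), 1 with scaling by library size, 0 with limma, 1 with no filter, 0 in a fit of 2 groups and 0 to 4 with a library left out. It was 4 without V2562 (Dnajb1, Hsp90aa1, Hspa1a, Hspa1b).

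Of 60 member fold changes, 39 kept their sign throughout, and the largest main size among those that did not was 0.199 on the log2 scale. The cause was not tested. With scaling by library size alone the sign changed for Hsp90ab1 (0.028) and Hsph1 (0.020) in HFpEF+Veh against non_failing, Hsp90ab1 (-0.075) and Hspa1b (-0.106) in TYA-018 against vehicle, Hspa8 (-0.019) in empagliflozin against vehicle, and Hsp90ab1 (-0.046) and Bag3 (-0.052) in TYA-018 against non_failing. With limma it changed for Hsp90ab1 (0.070) and Hsph1 (0.070) in HFpEF+Veh, Hsf1 (-0.071), Hsp90ab1 (-0.092) and Hspa1b (-0.090) in TYA-018 against vehicle, Hspa8 (-0.044) in empagliflozin against vehicle, and Hsp90ab1 (-0.022) and Bag3 (-0.023) in TYA-018 against non_failing. A fit of 2 groups gave Bag3 -0.00383 in the last of these. Between the drugs, a length offset gave Hsph1 0.013. The summed paralogs, added after the data were seen, gave 0.057 for Hspa1a between the drugs and -0.14 for Hspa1b in TYA-018 against vehicle. Without V2523 and V2532 together, also added later, Hsph1 (0.016), Cryab (-0.16) and Bag3 (-0.025) changed in HFpEF+Veh, Hspa8 (0.029) and Bag3 (0.037) in TYA-018 against vehicle, and Hsp90aa1 (0.050), Hspa1a (0.040) and Dnajb1 (0.0049) in empagliflozin against vehicle.

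With a library left out, the estimates that changed sign had these ranges. In HFpEF+Veh against non_failing, Hsph1 ran from -0.147 to 0.074, Cryab from -0.065 to 0.111 and Bag3 from -0.0035 to 0.118. In TYA-018 against vehicle, Bag3 ran from -0.100 to 0.011, Hspa1b from -0.075 to 0.107 and Hspa8 from -0.050 to 0.013. Between the drugs, Hsf1 ran from -0.217 to 0.0085, Hsp90aa1 from -0.105 to 0.012, Hspa1a from -0.287 to 0.054 and Hsph1 from -0.083 to 0.033. In TYA-018 against non_failing, Hsf1 ran from -0.177 to 0.106, Hsp90ab1 from -0.024 to 0.044 and Bag3 from -0.026 to 0.052. In empagliflozin against non_failing, Hsf1 ran from -0.052 to 0.2296.

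Other chaperone genes called in HFpEF+Veh against non_failing numbered 1 with library size, 2 with limma, 7 without V2523 and V2532, and 1 to 6 with a library left out. In TYA-018 against vehicle they numbered 3 with library size, 2 each with DESeq2, limma and no filter, 1 with a length offset and 0 to 2 with a library left out. In empagliflozin against vehicle 1 was called with no filter. In TYA-018 against non_failing 11 were called with DESeq2, 4 with limma and 5 to 9 with a library left out, and in empagliflozin against non_failing 4 with library size and 4 to 8 with a library left out. Over all genes, TYA-018 against vehicle had 1096 calls with library size, 402 with DESeq2, 618 with no filter and 58 in a fit of 2 groups, where TMM gave 266. Empagliflozin against vehicle had 457 with no filter, 0 with limma and 3 in a fit of 2 groups, where TMM gave 117. Against non_failing limma gave 506 for TYA-018 and 512 for empagliflozin, where TMM gave 1017 and 888. Without V2523 and V2532, HFpEF+Veh against non_failing had 916, where all libraries gave 433. Of the 45 pairs, 15 to 18 passed under other scales, without centring or without the farthest libraries.

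Hsf1, Hspa1a, Hspa1b and Hsph1 had the fewest counts and the widest intervals beside Cryab. TPM and expected counts of the paralogs rest on the split of shared reads. Labels do not give the hour or order of dissection.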
